A study of Mus musculus with 2 samples.

Results

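The miR-30 family was examined in heart tissue through its 7 annotated mouse genes, Mir30a, Mir30b, Mir30c-1, Mir30c-2, Mir30d, Mir30e and Mir30f, chosen by gene symbol among the 2202 microRNA genes counted. The samples were 2 libraries of RNA in the microRNA size range from hearts of female B6CASTF1/J mice aged 2 months, the hybrid offspring of C57BL/6J and CAST/EiJ parents, with no treatment or contrasting genotype. Both libraries form 1 group. The labels number the hearts as separate females and as biological replicates 1 and 2 but give both the same donor label. Every difference described here is therefore one between 2 libraries, which can hold technical spread, and no condition is compared.

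MicroRNAs are short RNAs cut from a hairpin. A protein complex carries them to messenger RNAs, which they recognise mainly through the seed, bases 2 to 8 from the 5′ end. Either arm of the hairpin, called 5p and 3p, can give a product. The miR-30 family is known in the heart for repressing connective tissue growth factor, a matrix-inducing factor of fibrosis, and for being abundant in heart muscle cells. It is also known to act on autophagy and on mitochondrial fission genes.

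RefSeq sequences on build GRCm38.p6 matched 5 of the 7 genes: Mir30a, Mir30c-1, Mir30c-2, Mir30e and Mir30f. The 5p products are shown first because they carry the seed that defines the family. Capitals mark the seed, and miR-384-5p from a gene on chromosome X is added because it was the only product of another gene among 1738 mature entries with the same seed, GUAAACA.
miR-30a-5p: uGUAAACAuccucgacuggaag
miR-30e-5p: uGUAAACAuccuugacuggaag
miR-30c-5p (from Mir30c-1 and from Mir30c-2): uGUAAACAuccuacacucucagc
miR-384-5p: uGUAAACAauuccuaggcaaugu

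Counted from 1 at the 5′ end, the first 12 bases were the same in the 5p products of Mir30a, Mir30e and both Mir30c genes. From miR-30a-5p to miR-30e-5p there was 1 substitution, C13U. From miR-30a-5p to miR-30c-5p there were 5 over 22 compared bases, namely C13A, G14C, G18C, G19U and A20C. The seed of the 5p products thus did not separate these members, and their differences lay in the 3′ part. Mir384 itself had 9 counts in replicate 1 and 7 in replicate 2, under the minimum of 10 counts in both libraries that was used here to call a gene detected.

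The 3p products fall into separate seed groups, and are shown because the deposited counts do not tell the arms apart.
miR-30a-3p: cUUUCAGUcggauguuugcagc
miR-30e-3p: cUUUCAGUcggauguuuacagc
miR-30c-1-3p: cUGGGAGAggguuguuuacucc
miR-30c-2-3p: cUGGGAGAaggcuguuuacucu

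The Mir30a and Mir30e products shared the seed UUUCAGU and differed by 1 substitution, G18A. Those of Mir30c-1 and Mir30c-2 shared the seed UGGGAGA and differed by 3, G9A, U12C and C22U from the first to the second. The table held 1 further product with the seed UGGGAGA, miR-6958-5p, and none with UUUCAGU.

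Mir30c-1 and Mir30c-2 are copies on different chromosomes with an identical 5p product of 23 bases. Their hairpins are printed with the longest stretch that one shares exactly with a hairpin elsewhere in capitals. In each case the partner was the other Mir30c gene.
Mir30c-1 (chr4:120769534-120769622, minus strand): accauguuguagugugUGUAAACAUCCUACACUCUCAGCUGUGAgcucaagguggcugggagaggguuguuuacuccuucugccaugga
Mir30c-2 (chr1:23291701-23291784, plus strand): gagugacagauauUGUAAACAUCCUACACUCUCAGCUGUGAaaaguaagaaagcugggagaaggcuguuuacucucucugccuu

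The shared stretch was 28 bases long and contained the whole 5p product. A read lying inside it matches both places, and the deposited tables assign such multimapping reads to neither. The counts of Mir30c-1 and Mir30c-2 given here are thus of reads placed at a single gene, and the amount of miR-30c-5p is not given by them. By the same search over 1005 hairpins, the longest exact stretch of Mir30a and of Mir30e was 18 bases, shared with each other in the 3p arm, which is shorter than their 22-base products.

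The libraries held 2424441 and 2770301 reads placed on the strand of a single microRNA gene, in replicates 1 and 2, out of 8069273 and 7995058 reads. Levels are given in CPM, counts scaled so that each library's own-strand counts share the same sum. Since a short read can cover a whole mature product, CPM was not divided by hairpin length. Intervals are 95% exact Clopper-Pearson intervals and cover counting error only. Among markers of heart muscle, Mir208a was measured at 1542 and 5865 CPM and Mir499 at 4354 and 2641 CPM. Neuronal markers, 6 genes, summed to 3 and 1 counts. They are copies of miR-124a and miR-9, whose copies share their mature products, so these are counts of single-place reads and not the level of neuronal RNA. The erythroid markers Mir451a, Mir144 and Mir486 made up 1.15% of all counts in replicate 1 but 9.56% in replicate 2. They did not move alike: Mir451a stood at 7816 and 86827 CPM and Mir144 at 1963 and 6858 CPM, but Mir486 at 1710 and 1919 CPM.

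The 7 genes together had 65652 counts in replicate 1 and 64859 in replicate 2. They made up 2.71% of counts in replicate 1 (interval 2.69 to 2.73) and 2.34% in replicate 2 (2.32 to 2.36), with a mean of 2.52% ± 0.259 (SD, n = 2). The share was 1.16-fold higher in replicate 1. With the 3 erythroid genes left out of the total, it was 2.74% and 2.59%, or 1.06-fold higher in replicate 1.

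Of the 7 genes 6 were detected. By single-place reads they fell into an abundant set of Mir30d, Mir30a and Mir30e and a scarce set of Mir30c-2, Mir30c-1 and Mir30b. Reads inside the 28-base stretch shared by Mir30c-1 and Mir30c-2 are missing from their counts. Their place in the scarce set, and the shares below, therefore do not give the amount of miR-30c-5p. The abundant set held 94.4% of the family's counts in replicate 1 (interval 94.2 to 94.6) and 93.6% in replicate 2 (93.5 to 93.8). Mir30d, on chromosome 15, was counted 24487 and 25696 times, or 10100 CPM in replicate 1 and 9276 CPM in replicate 2 (mean 9688 ± 583). Mir30a, on chromosome 1, was counted 23645 and 21862 times, or 9753 and 7892 CPM (mean 8822 ± 1316). Mir30e, on chromosome 4, was counted 13861 and 13181 times, or 5717 and 4758 CPM (mean 5238 ± 678). These 3 ranked 18, 20 and 29 by mean level among all 2202 genes, of which 1520 had no count in either library. Ranks here are of single-place reads. Multimapping reads, 49.5% of all reads in replicate 1 and 42.7% in replicate 2, were counted for no gene. The ranks therefore do not give the standing of the mature products among all microRNAs of the tissue.

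The scarce set lay below the lowest value of the abundant set in both libraries. Mir30c-2 was counted 1855 and 2406 times, or 765 CPM in replicate 1 and 868 CPM in replicate 2 (mean 817 ± 73.1). Mir30c-1 was counted 962 and 886 times, or 397 and 320 CPM (mean 358 ± 54.4). Mir30b was counted 842 and 828 times, or 347 and 299 CPM (mean 323 ± 34.2). Their ranks by mean level were 74, 95 and 97. Mir30c-2 alone of the 6 was higher in replicate 2 on this scale.

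**Figure D1:**
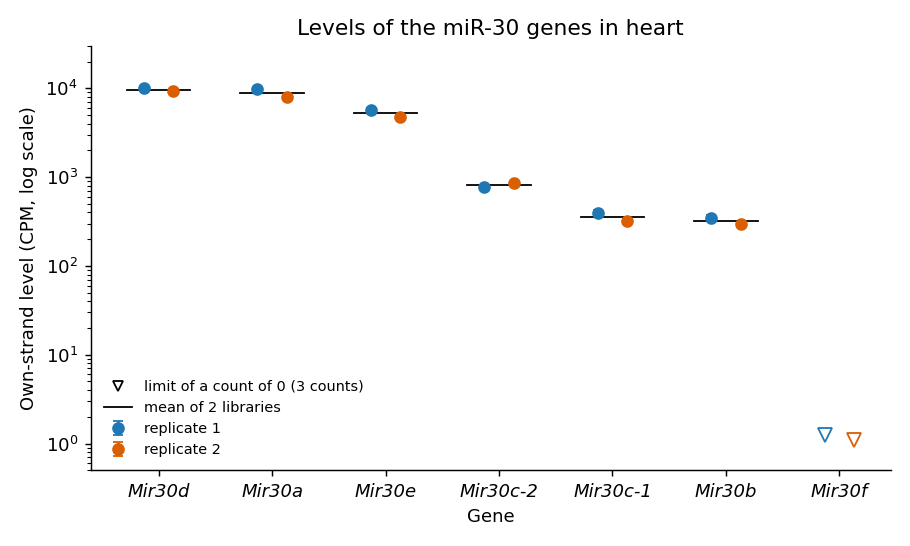
Level of each miR-30 gene in CPM on a log scale, with 1 point per library, 95% exact intervals of counting error (smaller than most points), and a black line at the mean of 2 libraries. Mir30d, Mir30a and Mir30e sit between 4758 and 10100 CPM and Mir30c-2, Mir30c-1 and Mir30b between 299 and 868 CPM; open triangles for Mir30f mark the limit of a count of 0.

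In the order Mir30d, Mir30a, Mir30e, Mir30c-2, Mir30c-1, Mir30b, Mir30f, which was the same in each library, 4 of 6 neighbouring pairs did not overlap between libraries. The pair of Mir30b and Mir30f among them was bound to be apart, since Mir30f had 0 counts. The widest step among detected genes was from Mir30e to Mir30c-2, a ratio of means of 6.41, followed by 2.28 from Mir30c-2 to Mir30c-1 and 1.68 from Mir30a to Mir30e. Steps to and from a Mir30c gene are of single-place reads. Mir30d and Mir30a overlapped between libraries (ratio of means 1.10), as did Mir30c-1 and Mir30b (1.11). Within a library, Mir30d exceeded Mir30a by 1.04-fold in replicate 1 (interval 1.02 to 1.05) and by 1.18-fold in replicate 2 (1.15 to 1.20). Per kb of hairpin, Mir30a stood above Mir30d, since its hairpin is 71 bases long against 82.

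As shares of the family's own counts, which do not depend on how libraries are scaled, the composition was close in both libraries but differed beyond counting error for some members. Mir30d took 37.3% in replicate 1 (interval 36.9 to 37.7) and the larger share of 39.6% in replicate 2 (39.2 to 40.0). Mir30a took 36.0% (35.6 to 36.4) and the smaller share of 33.7% (33.3 to 34.1). Mir30e took 21.1% (20.8 to 21.4) and 20.3% (20.0 to 20.6). Mir30c-2 took 2.83% (2.70 to 2.96) and 3.71% (3.57 to 3.86). The intervals of these 4 genes did not overlap between the libraries. Mir30c-1 held 1.47% and 1.37% and Mir30b 1.28% and 1.28%, with overlapping intervals. All these shares are of single-place reads, which leave out reads inside the stretch shared by the Mir30c genes.

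**Figure D2:**
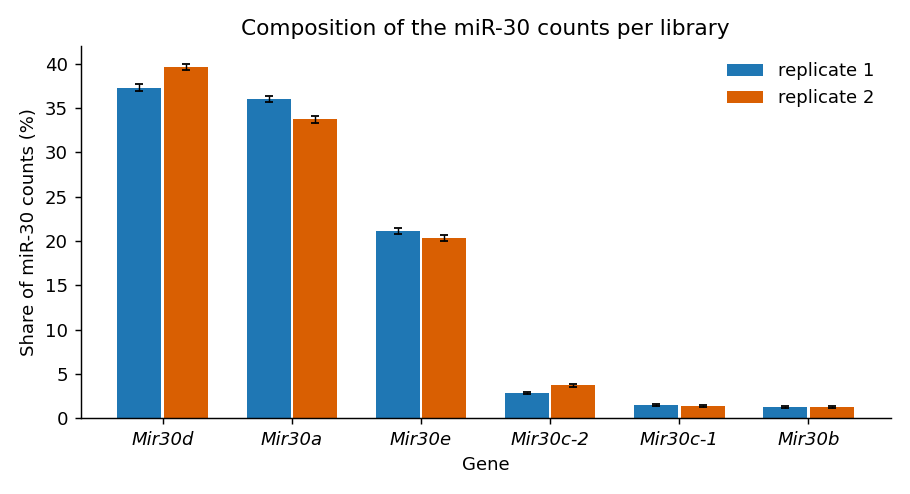
Share of all miR-30 counts held by each detected gene, in percent, as 1 bar per library with 95% exact intervals. Mir30d takes 37.3% and 39.6%, Mir30a 36.0% and 33.7% and Mir30e 21.1% and 20.3%, while Mir30c-2, Mir30c-1 and Mir30b each stay under 4%. Counts are of single-place reads, so the Mir30c shares leave out reads common to both Mir30c genes.

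The 7 genes lie at 3 places in the genome, in mm10 with the M21 annotation. On chromosome 15, minus strand, Mir30d (68341208 to 68341289) lies 3.7 kb upstream of Mir30b (68337415 to 68337510). Mir30d lies in an exon of the long noncoding RNA gene Gm20732 and overlaps the unclassified transcript Gm37296 by 9 bases, and Mir30b overlaps Gm26621 by 16 bases. On chromosome 4, minus strand, Mir30e (120772606 to 120772697) lies 3.0 kb upstream of Mir30c-1 (120769534 to 120769622). Both are in introns of Nfyc, which encodes a subunit of the CCAAT-binding transcription factor NF-Y. On chromosome 1, plus strand, Mir30a (23272269 to 23272339) lies in no other annotated gene, 19.4 kb upstream of Mir30c-2 (23291701 to 23291784), which lies in an exon of the long noncoding RNA gene Gm27028.

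At each of the 3 places the upstream gene was counted at least 9.09 times as often as the downstream one. The ratio of Mir30d to Mir30b was 29.1 in replicate 1 (interval 27.1 to 31.2) and 31.0 in replicate 2 (29.0 to 33.3). The ratio of Mir30e to Mir30c-1 was 14.4 (13.5 to 15.4) and 14.9 (13.9 to 15.9). Both ratios had overlapping intervals in the 2 libraries. For Mir30a and Mir30c-2, which lie farther apart than the 10 kb used here to define a cluster, the ratio was 12.7 (12.2 to 13.4) in replicate 1 and 9.09 (8.71 to 9.48) in replicate 2, so these intervals did not overlap. Ratios with a Mir30c gene are set against single-place reads alone, as described for its 5p product. The counts of Mir30d and Mir30b are of single-place reads too, and their shared stretches were not searched.

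**Figure D3:**
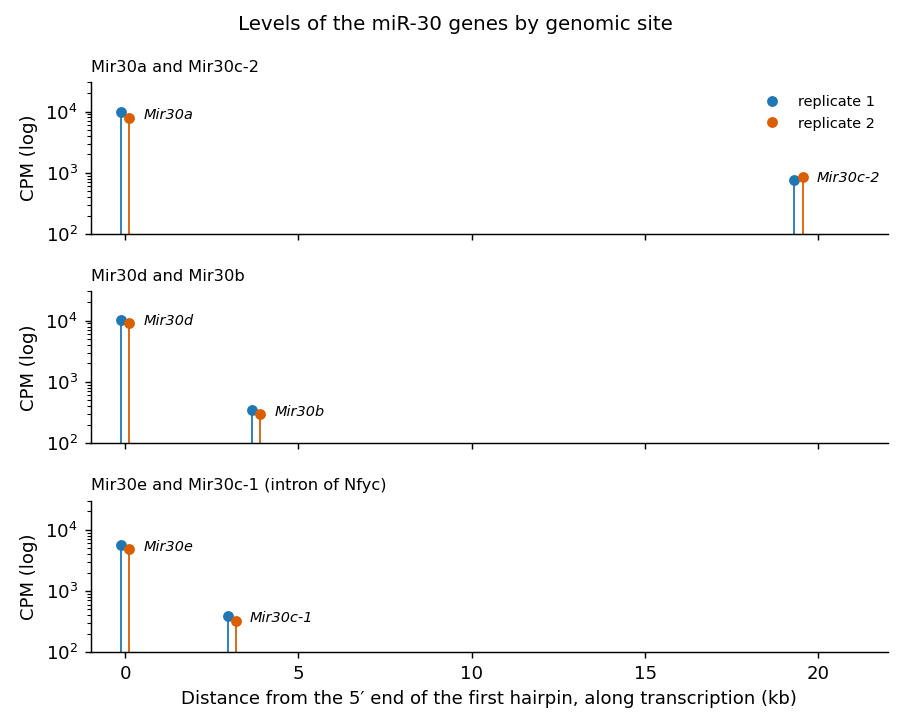
Level in CPM (log axis) of each detected miR-30 gene against the distance in kb from the 5′ end of the upstream hairpin, along the direction of transcription, with 1 panel per genomic place and 1 point per library; thin lines only mark the position. In all 3 panels the upstream gene is the higher, with 10100 and 9276 CPM for Mir30d against 347 and 299 CPM for Mir30b.

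The chromosome 15 pair held 38.6% of the family's counts in replicate 1 and 40.9% in replicate 2, the chromosome 1 pair 38.8% and 37.4%, and the chromosome 4 pair 22.6% and 21.7%. In replicate 1 the intervals of the chromosome 15 pair (38.2 to 39.0) and the chromosome 1 pair (38.5 to 39.2) overlapped, and in replicate 2 the chromosome 15 pair was the higher. Mir30c-2 was counted 1.93 times as often as its copy Mir30c-1 in replicate 1 (interval 1.78 to 2.09) and 2.72 times in replicate 2 (2.51 to 2.94). This ratio leaves out every read inside the stretch shared by both copies, as do the shares of the chromosome pairs. It therefore does not compare the output of the copies.

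Mir30f is annotated at the same bases as Mir30e, on the plus strand of chromosome 4. It had 0 own-strand counts in both libraries, which allows up to 3 counts, or 1.24 CPM in replicate 1 and 1.08 CPM in replicate 2. Its annotated product is shown with miR-30e-3p because they lie opposite each other on the 2 strands. Capitals mark the 19 bases of each that pair with the other.
miR-30f: GUAAACAUCCGACUGAAAGcuc
miR-30e-3p: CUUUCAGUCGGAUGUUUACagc

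The miR-30f product starts with the 7 bases that form the seed of miR-30a-5p, so its own seed, UAAACAU, is shifted by 1 base and was held by no other mature entry. All reads counted at this locus were on the Mir30e strand. The opposite-strand column of Mir30f held 13861 and 13181 counts, the same numbers as the own-strand column of Mir30e. These were 4620 and 4394 times the Mir30f limit of 3 counts. In the column that ignores strand both genes are listed at 0, where reads over overlapping genes are set aside as ambiguous. The other 6 genes had 0 opposite-strand counts in both libraries, which allows up to 0.00457% of the family's own-strand counts in replicate 1 and 0.00463% in replicate 2.

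The libraries were compared per gene to see how far the levels held from 1 library to the other. All 6 detected miR-30 genes stayed within 1.24-fold. On the log2 scale of replicate 2 over replicate 1, Mir30c-1 stood at -0.31, Mir30a at -0.31, Mir30e at -0.26, Mir30b at -0.22, Mir30d at -0.12 and Mir30c-2 at 0.18. Their median was -0.24, beside a median of -0.19 over the 306 detected genes. The median size of the log2 ratio was 0.24 for the 6 genes and 0.46 over all detected genes. Of all detected genes 59.2% lay within 1.5-fold, and 63.9% of the 97 genes at or above the mean level of Mir30b.

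Counts were set against the library totals in an exact binomial test (two-sided, p-values adjusted by Benjamini-Hochberg over 306 genes), which asked whether the 2 libraries differed beyond counting error. All 6 detected genes passed at an adjusted p of 0.05, as did 61.1% of all genes. Lower in replicate 2 were 5 of them, against 41.5% of all genes, and 1 was higher, against 19.6%. None of the 6 also differed by at least 1.5-fold, against 36.6% of all genes. Mir30a was 1.24-fold lower in replicate 2 (interval 1.21 to 1.26, adjusted p = 5.60e-112 by the exact binomial test). Mir30e was 1.20-fold lower (1.17 to 1.23, adjusted p = 1.03e-50, same test). Mir30d was 1.09-fold lower (1.07 to 1.11), with an adjusted p of 6.46e-21 by this exact test. Mir30c-1 was 1.24-fold lower (1.13 to 1.36) and Mir30b 1.16-fold lower (1.05 to 1.28), while Mir30c-2 was 1.14-fold higher (1.07 to 1.21). Their adjusted p-values by the exact binomial test were 9.38e-06, 0.00448 and 9.41e-05.

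These directions depended on the scaling for some members. With TMM factors from edgeR, which moved the median of all genes from -0.19 to 0.03, Mir30d stood at 0.10 and Mir30b at 0.00 on the log2 scale, and with DESeq2 size factors Mir30d stood at 0.07 and Mir30b at -0.03. Mir30a, Mir30e and Mir30c-1 stayed below 0 and Mir30c-2 above 0 under both, at 0.40 and 0.37. With either factor set Mir30b and Mir30c-1 no longer passed the test. The next setting takes its dispersion from the same 2 libraries whose difference it tests, so its outcome decides nothing about the 6 genes. When edgeR's common dispersion, estimated with both libraries as 1 group, was added to counting error, none of the 6 genes passed and 2 of 306 genes did, and 0 of the 6 had an unadjusted p under 0.05 against 18 of all genes.

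**Figure D4:**
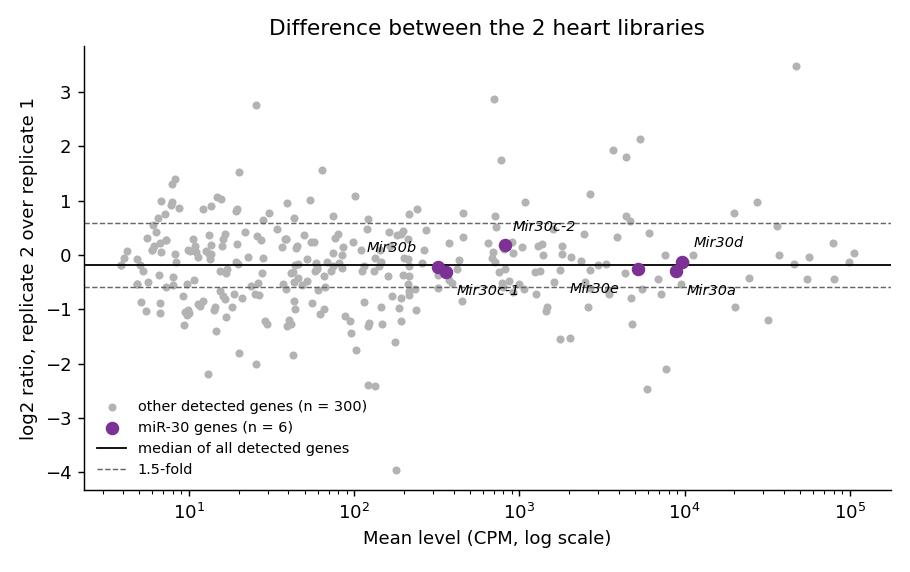
log2 ratio of replicate 2 over replicate 1 for each of 306 detected microRNA genes against its mean level in CPM (log axis), with the miR-30 genes in purple, the median of all detected genes (-0.19) as a black line and 1.5-fold as dashed lines. The 6 miR-30 genes lie between -0.31 and 0.18, inside the dashed lines.

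The detected genes closest in level over both libraries, by distance in log2 CPM, were Mir93 for Mir30d (distance 0.07; 10520 and 9553 CPM) and Mir15b for Mir30a (0.22; 11323 and 7794 CPM). For each of Mir30d and Mir30a the next closest was the other, at 0.24. With 2 libraries this measure reflects the level more than any pattern.

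For 3 other families the same values are given side by side; a difference from the miR-30 family was not tested. Of all 306 genes tested, 25.5% were lower in replicate 2 by at least 1.5-fold with an adjusted p under 0.05, and 11.1% were higher. The miR-26 family, counted at 2.71% of counts in replicate 1 and 1.39% in replicate 2, had 2 detected genes and both were lower by this rule (exact binomial test). The copies of miR-26a share their 5p product, so this share too is of single-place reads. In the miR-15/16 family, at 2.42% and 1.73%, 2 of 7 detected genes were lower and none higher. In the miR-29 family, which represses collagen genes, 2 of 4 detected genes were lower, and the share was 0.865% and 0.835%. The lower genes were Mir29b-1 (80 and 55 counts) and Mir29b-2 (56 and 39 counts), and Mir29a and Mir29c were not lower by this rule. Mir29b-1 and Mir29b-2, like Mir16-1 and Mir16-2, are copies by name. How many of their reads were multimapping is not given by the counts. With TMM factors, where 46 of all genes were lower and 52 higher, the calls were 2 lower for miR-26, 1 lower and 1 higher for miR-15/16 and 0 for miR-29.

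Other microRNAs with reported roles in fibrosis were taken as a list of 10 genes, 6 of them detected. By the same rule 4 were lower in replicate 2 and none higher, beside the 25.5% and 11.1% of all genes, but with TMM factors 1 was lower and none higher. Mir29b-1 and Mir29b-2 were among the 4. Mir21a, abundant in fibroblasts, was 5.54-fold lower, with 10018 and 1810 CPM. Mir214 was 1.60-fold lower (1122 and 701 CPM). Mir29a did not pass, at 7591 and 7600 CPM. The list's median log2 ratio was -0.70, beside -0.24 for the miR-30 genes and -0.19 for all detected genes. Mir133a-1 and Mir133a-2, heart muscle genes also known to act on connective tissue growth factor, had at most 11 counts in a library. Their mature products are identical, so these counts too are of single-place reads.

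Among the most abundant markers of other cell types, the endothelial Mir126a stood at 73653 and 85269 CPM, the smooth muscle Mir143 at 48716 and 43522 CPM, the fibroblast list's Mir214 at the values given, the leukocyte Mir155 at 2088 and 2027 CPM, and the erythroid Mir451a at 7816 and 86827 CPM. Mir206 of skeletal muscle stood at 268 and 161 CPM, Mir200c of epithelium at 159 and 269 CPM, and Mir122 of liver at 40.4 and 17.3 CPM. Of the 2 smooth muscle markers, both detected, Mir145a was 1.95-fold lower in replicate 2, at 1951 and 998 CPM. Mir143 was not lower by the 1.5-fold rule. With TMM factors 1 of these 2 was lower. Of the 4 leukocyte markers, all detected, 2 were lower in replicate 2 by the 1.5-fold rule and none higher. These were Mir223, at 205 and 39.0 CPM, and Mir142, at 1299 and 840 CPM. With TMM factors 1 of the 4 was lower. In tissue RNA, fewer cells of a type and less RNA per cell cannot be told apart. The part of cell makeup in the miR-30 values was not tested. Leaving the 3 erythroid genes out of the total changed the scaling only.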

How the data were processed

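Each library was deposited by the authors as raw counts of reads per microRNA gene. Reads were placed on mm10, per the labels, with annotation M21, per the text deposited with the tables. For the aligner, the counter and trimming, nothing is stated in the sources used here. From the values, the 3 count columns hold reads on either strand, the gene's own strand and the opposite strand. The first 4 lines name no gene and held 70.0% and 65.3% of reads in replicates 1 and 2. These lines entered neither library totals nor tests. Each of the 2202 identifiers had a gene in M21. Matches of mature sequences in the genome were not searched.

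Own-strand counts were scaled to CPM. Genes with at least 10 counts in both libraries entered an exact binomial test (two-sided, against library totals), with Benjamini-Hochberg adjustment across all genes tested. Genes with an adjusted p under 0.05 and at least 1.5-fold were counted beside it. edgeR's quasi-likelihood test could not be fitted with 1 library a side. For a count of 0 a fixed limit of 3 counts was used in place of the exact interval.

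The named genes were the 7 miR-30 genes, the 2 nearest in level to each of Mir30d and Mir30a, a fibrosis list, the most abundant gene of each marker list, and 3 families. Mir384 was added after its seed was seen, and Mir499, Mir223, Mir142, Mir144, Mir486 and Mir145a after their values were seen. The members and lists were chosen with earlier results of these data known. Alternatives changed the strand column, the total, the count filter, the scaling, the test and the fold. Python 3.11.15, numpy 2.4.6, pandas 2.3.3, scipy 1.17.1, matplotlib 3.10.9, R 4.3.3, edgeR 4.0.16 and DESeq2 1.42.0 were used.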

Additional observations from a re-analysis of the deposited data

Results flagged for a closer look

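Multimapping reads, which the tables assign to no gene, numbered 3992614 in replicate 1 and 3410568 in replicate 2. How many of them came from the 5p product shared by Mir30c-1 and Mir30c-2 is not given by the tables.

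The opposite-strand column of Mir30f held 13861 counts in replicate 1 and 13181 in replicate 2, against 0 on its own strand. These are the numbers of the own-strand column of Mir30e, which is annotated at the same bases.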

How the results depend on the processing

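The family's share of counts was 1.04% with multimapping reads added to the total, by construction, against 2.67% on either strand and 2.66% without erythroid genes. The value on either strand leaves out Mir30e, whose reads are set aside there as ambiguous. Its total lacks the ambiguous reads too, so it is not a share of the same genes. With Mir30e listed at 0 in that column, its level, log2 ratio and ratio to Mir30c-1 could not be given. On either strand 3 miR-30 genes had an adjusted p under 0.05. With edgeR's common dispersion (square root 0.383) 0 miR-30 genes and 2 of all genes had one, and 2 of all genes also differed by 1.5-fold. Without a fold minimum 6 miR-30 genes and 187 of all genes passed, and at 2-fold 55 of all genes. Of all genes that differed by 1.5-fold, 34 were higher and 78 lower, against 52 and 46 with TMM factors and 48 and 49 with DESeq2 factors. The log2 ratio of Mir30d reversed with TMM factors (0.10), DESeq2 factors (0.068) and counts on either strand (0.026), and that of Mir30b with TMM factors (0.0019). Neighbours in the order of levels stood apart in 6 of 6 pairs without erythroid genes or with multimapping reads in the total. The pair with Mir30f was bound to stand apart in each setting. The common dispersion came from the same 2 libraries it was used to test, so its outcome decides nothing. No paired analysis was possible because the labels give a single group. A difference between 2 libraries cannot be computed with 1 left out. For Mir30f, at 0 counts, the limit of 3 counts is 1.24 CPM in replicate 1.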
